A study of Mus musculus with 8 samples.

Results

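The 10 genes *Rbfox1*, *Rbfox3*, *Nova1*, *Nova2*, *Elavl2*, *Elavl3*, *Elavl4*, *Ptbp2*, *Celf4* and *Khdrbs2* encode RNA-binding proteins of neurons that control alternative splicing. They were chosen by gene name. All 10 were found among the 23335 gene names of the deposited count table, of which 16531 had any count.

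The study measured messenger RNA in single interneurons of mouse frontal cortex to examine what shapes co-expression between genes. Chandelier cells (ChC), which synapse on the axon initial segments of pyramidal cells, came from mice of the genotype Nkx2.1-CreER; Ai14, in which tamoxifen given at E17.5 switched on a red fluorescent protein (RFP). Parvalbumin cells (Pv), fast-spiking cells that mostly contact cell bodies and proximal dendrites, came from Pv-ires-Cre; Ai14 mice. RFP-positive neurons were picked by hand, amplified with tags that mark single molecules (UMI), and prepared in 8 library batches of 16 cells. All 4 animals were labeled as female and wild type. ChC batches 1 and 2 came from animal 1 at postnatal day 31 and batches 3 and 4 from animal 2 at day 32. Pv batches 5 and 6 came from animal 3 at day 29 and batches 7 and 8 from animal 4 at day 35. The labels of the Pv samples repeat the text on tamoxifen, and whether those mice received it is not clear from them. Each cell type had a mouse line and a flow cell of its own, so that effects of line or flow cell cannot be told apart from those of cell type, and each animal was of a single type and run in a single lane. CreER labels the cells that had *Nkx2-1* activity at the time of induction, and Pv-ires-Cre labels any cell with parvalbumin promoter activity, which can include ChC.

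Alternative splicing lets neurons make many protein forms from one gene, and much of it is set by RNA-binding proteins that are abundant in neurons. Rbfox proteins recognize GCAUG, Nova proteins bind clusters of short pyrimidine-rich repeats through KH domains, neuronal Elavl (Hu) and Celf proteins bind U-rich or GU-rich stretches, and Ptbp2 binds pyrimidine tracts and mostly represses exons. Several of these proteins also act on the stability, transport or translation of mRNA, so that a transcript level alone does not tell the activity of the protein.

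Batches 1 to 4 held 448124, 556406, 2460674 and 1123085 UMI and batches 5 to 8 held 392580, 430862, 316540 and 797174 UMI. Of 128 cells, all but 2 had counts, 63 of each type. Cells had between 903 and 515369 UMI in ChC, with a median of 33244, and between 2000 and 93435 in Pv, with a median of 23248. Levels are given as CPM, the UMI of a gene per 1e6 UMI of a batch, with TMM scaling between batches, and means are over the 4 batches of a type.

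The values appear to count tags over the whole genomic span of a gene, which is inferred here from the table. Among 3061 pairs of rows of one gene name in which the shorter span lay within the longer, the longer row was at least as high in every cell in 99.8%. Rows of at least 10 UMI that lay within a row of another gene name were examined too. There the longer row was at least as high in every cell in 99.9% of 682 pairs of rows on the same strand. On opposite strands this held for 99.2% of 257 pairs. Tags of introns, of nested genes and of either strand therefore cannot, on this reading, be told apart from those of spliced messenger RNA, and no splice form can be read from these counts.

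The labels were examined with marker genes. *Pvalb*, the gene of parvalbumin, was between 551 and 1789 CPM in the Pv batches and between 86.7 and 203 CPM in the ChC batches, and *Erbb4* was between 4113 and 5841 CPM in ChC and between 1381 and 1999.7 CPM in Pv. All 7 markers of GABAergic neurons had UMI, with a summed level of between 4320 and 10832 CPM per batch. Apart from *Pvalb* and *Erbb4*, the ChC and Pv batches of each of these markers overlapped. Among them was *Nkx2-1*, the driver gene of the ChC line, at 63.7 to 78.7 CPM in ChC and 22.6 to 88.7 CPM in Pv. Of 6 markers of pyramidal neurons, *Neurod6*, *Tbr1* and *Emx1* were at 0 in every cell. The summed level of this list was 12.3, 55.8, 5.21 and 101 CPM in batches 1 to 4 and 13.9, 2.43, 322 and 29.7 CPM in batches 5 to 8, where *Slc17a7*, the vesicular glutamate transporter, was the most abundant gene. The 5 astrocyte markers, led by *Slc1a3* and with *Gfap* at 0, summed to 24.6, 139, 106 and 311 CPM in ChC and 13.9, 7.28, 189.6 and 105 CPM in Pv batches. Oligodendrocyte markers (*Mag* and *Mobp* at 0, led by *Mbp*) reached 108 CPM in batch 4, microglia markers (*C1qa* at 0) 59.9 CPM in batch 4, and endothelial markers (*Cldn5* at 0, led by *Flt1*) 22.3 CPM in batch 2, their highest values. For the pyramidal, astrocyte, oligodendrocyte and microglia lists, batches 4 and 7 were the highest, and batch 7 was also the lowest for the GABAergic list.

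Beyond counting error, batches of one cell type differed more than cells of one batch. Over the cells of a batch, the chi-square of a gene per degree of freedom, given the cell totals, had a median of between 0.991 and 1.25 in the 8 batches for genes with at least 100 UMI, where a value of 1 is what draws from a single shared composition give. Over the 4 batches of a type it had a median of 37.9 in ChC (7334 genes) and 33.4 in Pv (4421 genes), but it grows with UMI, of which a batch holds more than a cell. The squared coefficient of variation beyond counting does not. For the 523 genes with at least 100 UMI in every ChC batch, its median was between 0.00180 and 0.00638 over the cells of a batch and 0.156 over the batches. For 252 such genes in Pv these were between 0.000857 and 0.0253 and 0.108. Whether tags were exchanged between the cells of a batch was not tested. If they were, shares of cells, genes found together and correlations over cells would describe the batch and not the cell, and levels are therefore given by batch.

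No member gene passed the comparison of ChC with Pv. With UMI summed per animal, 2 animals against 2, the quasi-likelihood test of edgeR, adjusted by Benjamini-Hochberg, called 0 of 10 member genes and 0 of 9681 genes tested (0%). At an unadjusted p under 0.05 it gave 1 member, *Celf4*, and 618 of all genes (6.38%). DESeq2 called 156 of 9681 genes (1.61%), edgeR without a filter on low counts 85 of 16531 (0.514%), and edgeR with batches as samples 6 of 6283 (0.0955%), and none of these were member genes. All 4 ChC batches lay above all 4 Pv batches for 1 of the 10 members, again *Celf4*, where 2.78% of all genes tested had that pattern, and for 0 members without the tags in the 5′ part of *Celf4*. The reverse was found for 0 members and 1.55% of all genes. As log2, the ChC to Pv ratio was above 0 for 5 members, with a median of 0.03, and for 4997 of all 9681 genes, with a median of 0.05.

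**Figure D1:**
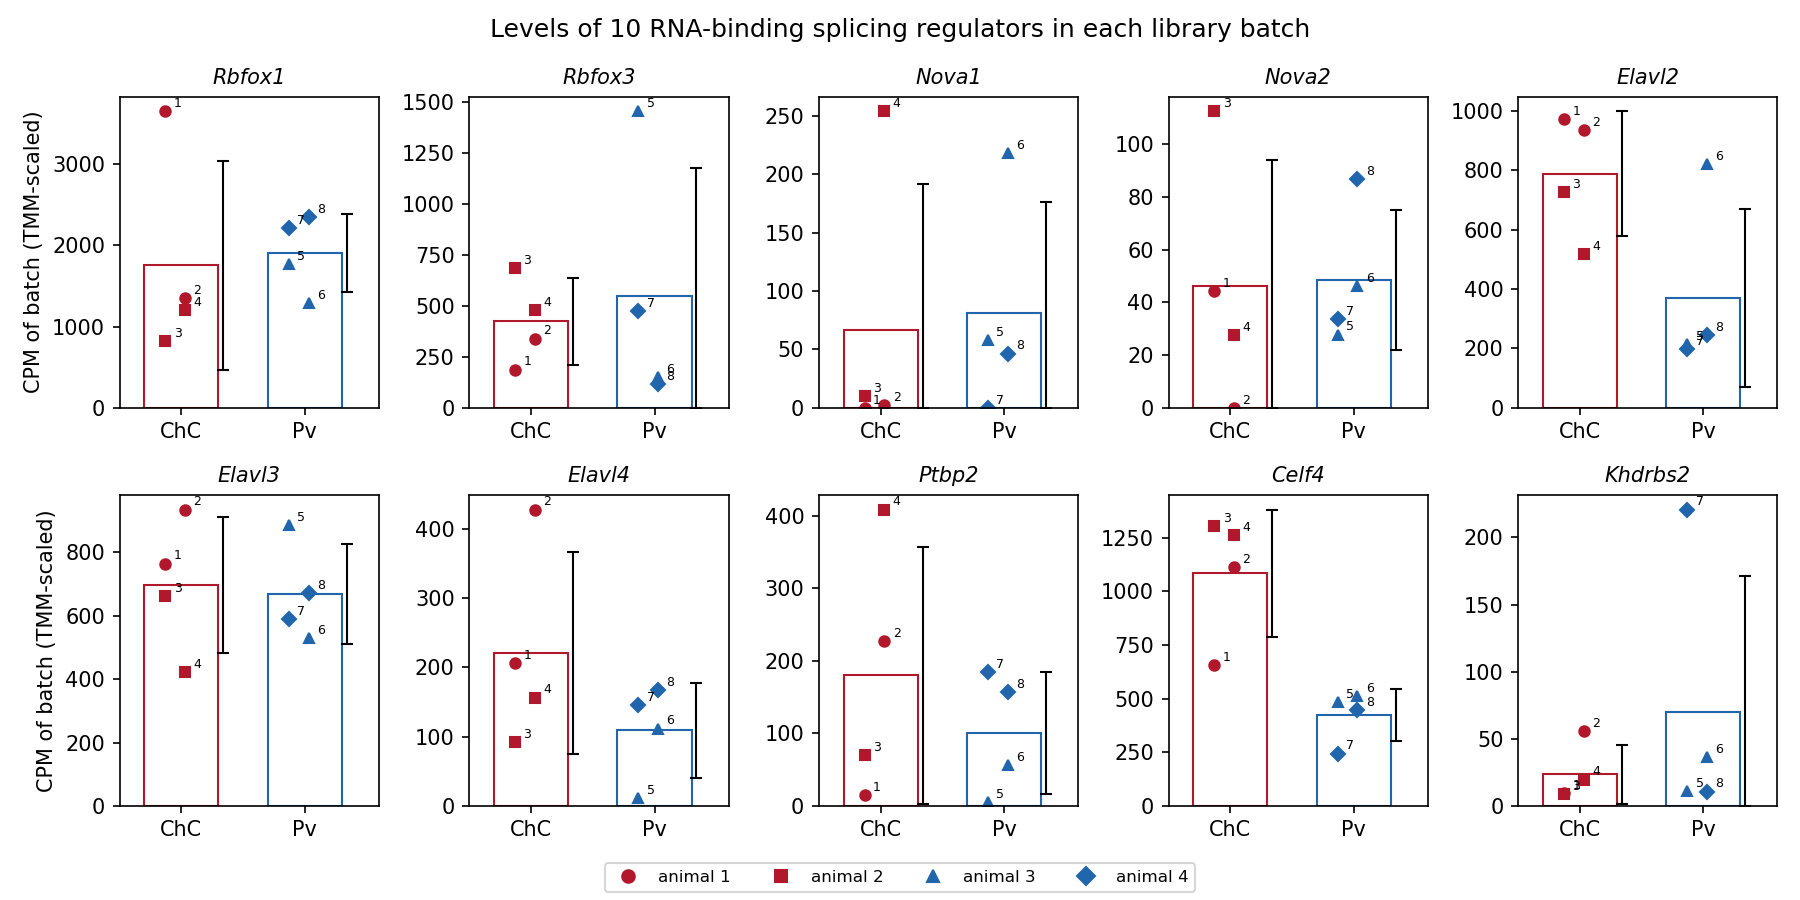
CPM of each member gene (vertical axis, from 0, TMM-scaled) in each library batch, by cell type. Points are batches, numbered, with one marker shape per animal; bars are means over 4 batches and the lines beside them SD, drawn no lower than 0. With all tags counted, *Celf4* is the gene whose ChC batches (657 to 1305) lie apart from its Pv batches (244 to 512).

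*Celf4* encodes a Celf protein that binds GU-rich sequences, controls exon inclusion and associates with mRNAs of synaptic proteins. Its level was 657, 1114, 1305 and 1262 CPM in ChC batches 1 to 4 and 485, 512, 244 and 448 CPM in Pv batches 5 to 8. The ChC mean was 1084 ± 297 CPM and the Pv mean 422 ± 122 CPM (SD, n = 4 batches). The lowest ChC batch was above the highest Pv batch, and the 2 batches from animal 2 were close to each other. The log2 fold change (ChC over Pv) was 1.30 (standard error 0.51, edgeR adjusted p = 0.692) and stayed between 1.04 and 1.55 as each animal or each batch was left out. Per animal, *Celf4* was at 862 and 1303 CPM in the ChC animals and at 469 and 423 CPM in the Pv animals, without scaling.

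The gene lies on the minus strand of chromosome 18 of mm9, from 25636121 to 25912484, and a shorter row covers only its 5′ part, from 25836381 on. Of 6392 UMI of the gene, 746 were in that 5′ part. There they made up 165 of 267 UMI in batch 1 and 156 of 377 in batch 8, but 16 of 599 in batch 2 and 0 of 175 and 0 of 211 in batches 5 and 6. Without the tags of that part, a scale chosen after the data were seen, *Celf4* was at 251, 1084, 1209.9 and 1139.9 CPM in ChC and 485, 512, 151 and 263 CPM in Pv batches. ChC batch 1 was then below Pv batches 5, 6 and 8, so that the separation of the types rested on the 5′ tags of batch 1. The means, at 921 ± 449.9 CPM in ChC and 353 ± 175 CPM in Pv (SD, n = 4), remained about as far apart in ratio as with all tags. The share of *Celf4* tags outside the 5′ part was between 38.2% and 97.3% in ChC batches and between 58.6% and 100% in Pv batches, and the types overlapped.

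*Celf4* was not the most abundant Celf gene in every batch. *Celf2* was at 1462 ± 550.1 CPM in ChC and 1233 ± 219 CPM in Pv (SD, n = 4), and it made up between 51.1% and 71.4% of the Celf UMI in Pv batches. *Celf4* made up 21.01%, 31.1%, 49.4% and 42.2% of the Celf UMI in ChC batches and 20.5%, 24.8%, 13.4% and 27.4% in Pv batches, so that its share in batch 1 lay within the Pv range and it passed *Celf2* in batches 3 and 4. By mean CPM, the other Celf genes were lower. Per kb of genomic span the order differed, with *Celf5* highest in ChC (7.50 CPM per kb) and *Celf1* in Pv (2.76). On that scale *Celf4* was at 3.92 and 1.53 and *Celf2* at 1.71 and 1.44, in ChC and Pv. *Celf1* was at 296 ± 103 and 218 ± 187 CPM, *Celf5* at 176 ± 118 and 37.8 ± 37.98 CPM, *Celf3* at 58.6 ± 34.1 and 12.0 ± 14.2 CPM, and *Celf6* at 7.92 ± 6.38 and 48.6 ± 91.5 CPM in ChC and Pv (SD, n = 4). The ChC and Pv batches of each of these relatives overlapped. Some of these means rest on 1 batch. In Pv, *Celf6* was at 2.86 and *Celf3* at 6.73 CPM without batch 5, *Celf1* at 128.3 without batch 6 and *Celf5* at 20.1 without batch 7, and in ChC *Celf6* was at 4.90 without batch 4.

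The 3 neuronal Elavl genes encode Hu proteins, which bind U-rich and AU-rich stretches, stabilize mRNAs and shift splice choice. *Elavl2* was at 974, 935, 727 and 518 CPM in ChC batches and at 214, 819.9, 197 and 246 CPM in Pv batches. Every Pv batch but batch 6 was below the lowest ChC batch, and batch 6 was above ChC batches 3 and 4. The means were 788 ± 211 and 369 ± 301 CPM (SD, n = 4), with a log2 fold change of 1.06 (standard error 0.60, edgeR adjusted p = 0.864). Without batch 6 the fold change was 1.80 and without batch 5 it was 0.52, on the log2 scale, with adjusted p-values from edgeR of 0.839 and 1.00.

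The batches of one animal differed by at most 1.68 times for *Elavl3*, the least of any member. It was at 765, 935, 662 and 423 CPM in ChC and at 887, 529, 589.6 and 671 CPM in Pv batches. The ranges overlapped almost fully, with means of 696 ± 214 and 669 ± 157 CPM (SD, n = 4) and a log2 fold change of 0.10 (standard error 0.51, edgeR adjusted p = 0.999), which was below 0 without animal 1 (-0.19), batch 3 (-0.0556) or batch 6 (-0.14). *Elavl4* was lower, at 207, 428, 91.7 and 156 CPM in ChC and 11.1, 112, 145 and 168 CPM in Pv batches. Its highest batch was ChC batch 2 and its lowest Pv batch 5, with 230 and 4 UMI, and the other 6 batches were interleaved. The log2 fold change of *Elavl4* was 0.96 (standard error 0.91, edgeR adjusted p = 0.979), and it was -0.00504 without animal 1 and 1.72 without animal 4.

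Shares were also taken within the neuronal Elavl genes. *Elavl2* made up 50.1%, 40.7%, 49.1% and 47.2% of the UMI of the 3 genes in ChC batches and 19.2%, 56.1%, 21.2% and 22.7% in Pv batches. *Elavl3* made up between 38.5% and 44.7% in ChC and 79.8%, 36.2%, 63.2% and 61.9% in Pv. *Elavl4* made up 10.6%, 18.6%, 6.19% and 14.3% in ChC and 0.998%, 7.64%, 15.6% and 15.4% in Pv batches, a wide range in both types. *Elavl3* was thus the largest part in Pv batches 5, 7 and 8, and *Elavl2* in batch 6. *Elavl1*, the relative found in most tissues, was at 452, 9.30, 114 and 59.01 CPM in ChC and 161, 216, 20.8 and 29.7 CPM in Pv batches, which overlapped.

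**Figure D2:**
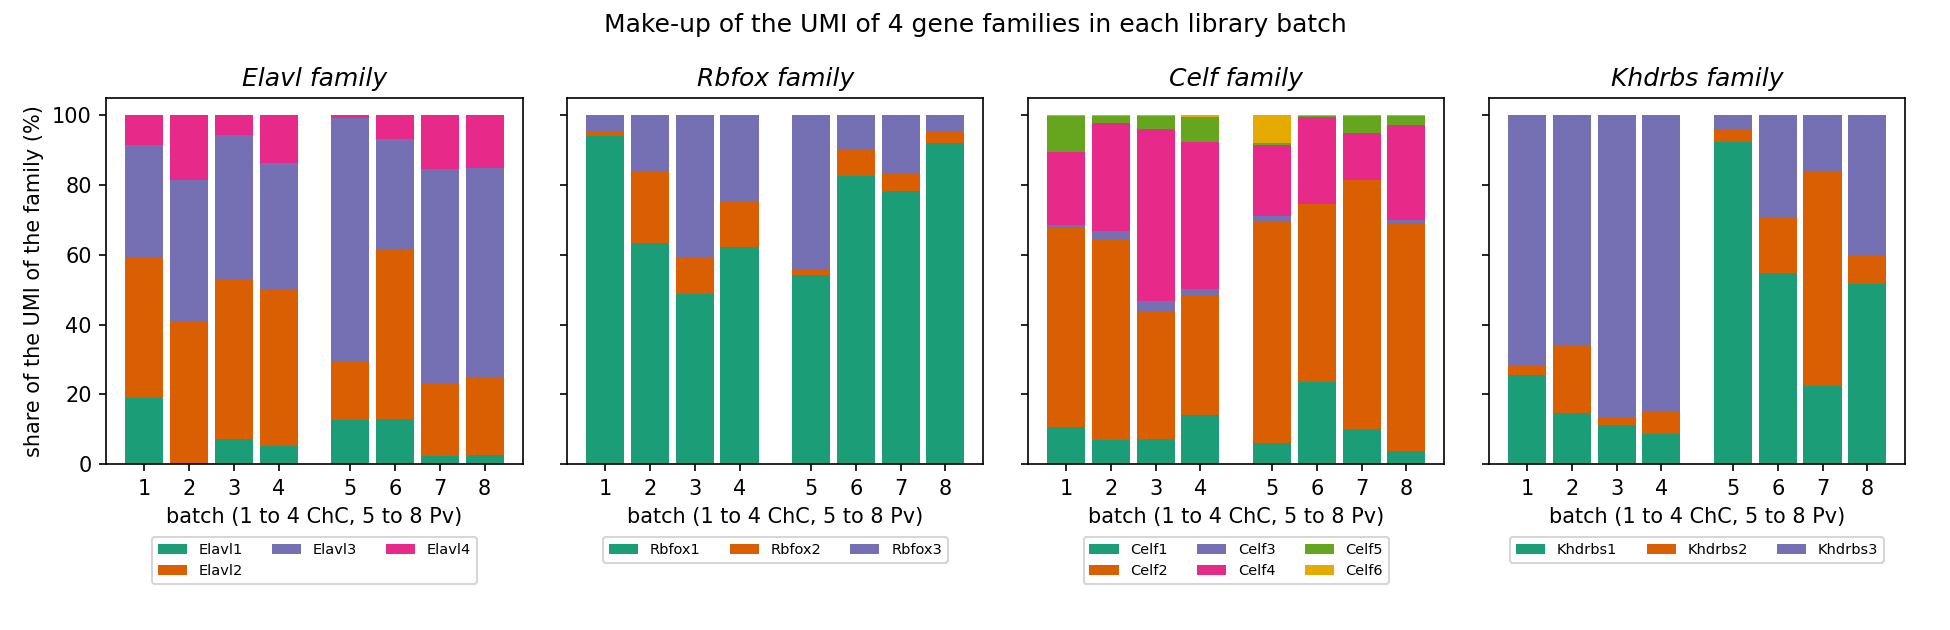
Share of the UMI of a gene family (vertical axis, percent) held by each gene in each library batch, for the Elavl, Rbfox, Celf and Khdrbs families. Batches 1 to 4 are ChC and batches 5 to 8 Pv. *Khdrbs3* holds between 65.8% and 86.6% of the Khdrbs UMI in ChC batches and at most 40.4% in Pv batches.

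*Rbfox1* encodes a regulator of exons in synaptic and ion channel genes, and it was the member with the most tags. It was at 3654, 1348, 819 and 1201 CPM in ChC batches and 1772, 1286, 2211 and 2354 CPM in Pv batches. Batch 1 was the highest of all 8 and the other ChC batches were among the lowest, so that the Pv range lay within the ChC range. The means were 1756 ± 1285 and 1906 ± 482 CPM (SD, n = 4) and the log2 fold change was -0.24 (standard error 0.52, edgeR adjusted p = 0.993). It was 0.36 without batch 2, 0.29 without animal 2 and 0.0651 without animal 4. By mean CPM over batches *Rbfox1* ranked 21 of the 16531 genes with a UMI.

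*Rbfox1* is a very long gene, from 5884886 to 7412573 on the plus strand of chromosome 16, a span of 1528 kb. A second row covers the 3′ part from 7069928 on, 343 kb. Of 9601 UMI, 7956 (82.9%) were in the stretch before it, which takes up 77.6% of the span and holds 27 exonic bases in the GENCODE vM1 annotation of the same build. That share was 94.95%, 89.0%, 79.9% and 65.1% in ChC batches and 78.4%, 68.3%, 86.8% and 90.4% in Pv batches, with no separation of the types. Most *Rbfox1* tags were therefore placed in a stretch that is nearly all intron of this gene in the annotation. The noncoding gene *1700123O21Rik*, within the span, held 83 UMI.

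*Rbfox3* encodes the protein known as NeuN, a common marker of neuronal nuclei that is weak in some cortical interneurons. It was at 187, 338, 686 and 479 CPM in ChC batches and at 1453, 150.4, 475 and 116 CPM in Pv batches. Both the highest and the lowest batch were Pv batches, from different animals, and the batches of animal 3 differed by 9.66 times. The log2 fold change was -0.16 (standard error 0.73, edgeR adjusted p = 0.999) and was above 0 without batch 5 (1.17), batch 7 (0.0323), animal 1 (0.32) or animal 3 (0.97). *Rbfox3* made up between 4.82% and 40.9% of the Rbfox UMI in ChC batches and between 4.55% and 44.5% in Pv batches. *Rbfox2*, the relative that is expressed in many tissues, was at 36.9, 437, 172 and 249 CPM in ChC and 41.6, 121, 140.3 and 86.7 CPM in Pv batches, a log2 fold change of 1.28 (standard error 0.80, edgeR adjusted p = 0.895).

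*Nova1* and *Nova2* encode the Nova proteins, known from splicing of inhibitory receptor and synaptic genes. *Nova1* was at 0, 1.86, 10.01 and 254 CPM in ChC batches and at 58.2, 218, 0 and 46.3 CPM in Pv batches. It stood at 284 UMI in batch 4 and 25 UMI in batch 3, both from animal 2, and had no UMI in batches 1 and 7, where 3 UMI would be 7.38 and 7.79 CPM. *Nova2* was at 44.3, 0, 113 and 27.7 CPM in ChC and 27.7, 46.1, 33.8 and 86.7 CPM in Pv batches, and had no UMI in batch 2, where 3 UMI would be 5.58 CPM. The cell types overlapped fully for both genes. The log2 fold changes were -1.02 for *Nova1* (standard error 1.64, edgeR adjusted p = 0.989) and -0.04 for *Nova2* (standard error 1.25, edgeR adjusted p = 0.999). Without animal 2, the value for *Nova1* was -6.23, and it was above 0 without animal 3 (0.46) or batch 3 (0.60). For *Nova2* it was -1.50 without animal 2 and above 0 without animal 1 (0.68), animal 4 (0.47) or batch 2 (0.31), 4 (0.34), 6 (0.0438) or 8 (0.55).

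The share of *Nova1* in the Nova UMI varied between batches, of which batches 1 and 2 held only 18 and 1 Nova UMI. *Nova1* made up 8.17% of the Nova UMI in batch 3 and 90.2% in batch 4 of the same animal. In Pv batches 5, 6, 7 and 8 its share was 67.7%, 82.6%, 0% and 34.8%, of 31, 109, 13 and 112 Nova UMI. Batch 4 was also the batch with the most microglia and astrocyte tags, whose part in its *Nova1* level was not tested.

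*Ptbp2* encodes the neuronal polypyrimidine tract protein, which takes the place of Ptbp1 as precursors become neurons. It was at 14.8, 227, 70.1 and 409 CPM in ChC batches and at 5.55, 55.8, 184 and 157 CPM in Pv batches. The low batches, 1 and 5, held 6 and 2 UMI of the gene, and the batches of animals 1, 2 and 3 differed by 15.4, 5.83 and 10.1 times. The means were 180.1 ± 177 and 101 ± 84.1 CPM (SD, n = 4), with a log2 fold change of 0.63 (standard error 1.01, edgeR adjusted p = 0.989). It was -0.0885 without animal 3, -0.0581 without batch 2 and 2.22 without animal 4. The highest batches of each type, 4 and 7, were those with most pyramidal and glial tags, and the part of these in the level was not tested. *Ptbp1* was nearly absent. It had UMI in 10 cells and was at 0 in batches 1, 2, 5, 6 and 8, so that *Ptbp2* made up between 91.0% and 100% of the UMI of the pair in every batch.

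*Khdrbs2* encodes SLM1, a STAR family protein that acts with its relative Khdrbs3 (SLM2) on neurexin exons. It had the fewest UMI of any member, with 191 in all cells, 85 of them in batch 7. Its level was 9.84, 55.8, 8.81 and 19.7 CPM in ChC batches and 11.1, 36.4, 221 and 10.7 CPM in Pv batches. Batch 7 stood apart and the other 7 batches were interleaved. The log2 fold change was -1.10 (standard error 1.37, edgeR adjusted p = 0.989) and 0.44 without batch 7. Batch 7 also had the most *Slc17a7*, at 286 CPM, whose part was not tested. The genes *Gm5415* and *Gm9839* within the span of *Khdrbs2* held 38 UMI together.

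*Khdrbs3*, the relative of *Khdrbs2*, was at 229, 186, 347 and 261 CPM in ChC and 13.9, 67.9, 57.1 and 54.7 CPM in Pv batches. It was the 1 of 8 tested relatives with all ChC batches above all Pv batches, where 2.78% of all genes tested had that pattern. Its log2 fold change was 2.40 (standard error 0.85, edgeR adjusted p = 0.657). *Khdrbs1*, which encodes Sam68, was at 48.2 ± 23.4 CPM in ChC and 145 ± 108 CPM in Pv batches (SD, n = 4), which overlapped, and at 92.3 CPM in Pv without batch 5. *Khdrbs2* thus made up 3.08%, 19.7%, 2.20% and 6.41% of the UMI of the 3 genes in ChC batches and 3.39%, 15.8%, 61.6% and 7.89% in Pv batches.

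Genes were put in order by CPM and by CPM per kb of genomic span, because tags appear to be counted over whole spans. By CPM in ChC, the order was *Rbfox1*, *Celf4*, *Elavl2*, *Elavl3*, *Rbfox3*, *Elavl4*, *Ptbp2*, *Nova1*, *Nova2* and *Khdrbs2*. By CPM in Pv, it was *Rbfox1*, *Elavl3*, *Rbfox3*, *Celf4*, *Elavl2*, *Elavl4*, *Ptbp2*, *Nova1*, *Khdrbs2* and *Nova2*. A gene was above the next in all 4 batches only for *Ptbp2* over *Nova1* in ChC and for *Rbfox1* over *Elavl3* and *Elavl2* over *Elavl4* in Pv, and the other neighbors in these orders did not differ beyond their spread.

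Per kb of span, *Elavl3* led in both types, with 18.8 ± 5.79 CPM per kb in ChC and 18.1 ± 4.23 in Pv (SD, n = 4). *Elavl2* was next, at 5.28 ± 1.41 CPM per kb in ChC and 2.47 ± 2.02 in Pv, below *Elavl3* in all 4 batches of each type. *Rbfox1* dropped to 1.15 ± 0.84 CPM per kb in ChC and 1.25 ± 0.32 in Pv, close to *Rbfox3* at 1.01 ± 0.51 and 1.31 ± 1.49 and to *Nova2* at 1.17 ± 1.21 and 1.23 ± 0.67. *Khdrbs2* was last, at 0.0485 ± 0.0455 CPM per kb in ChC and 0.144 ± 0.209 in Pv. No other neighbors on this scale differed in all 4 batches. Over 8732 genes with at least 100 UMI, the Spearman correlation of span with UMI was 0.148, a description across genes, which are not independent. Tags were not spread evenly along every span. For *Elavl4*, the part outside its shortest row took up 43.9% of the span and held 4.46% of the UMI. For *Elavl2* that part took up 18.7% and held 0.15%, while for *Rbfox1* it took up 77.6% and held 82.9%. The order per kb is therefore a second description and not a truer scale of abundance.

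With cells thinned to 10000 UMI or not thinned, tags were found in nearly every cell for 4 of the members. After each cell was thinned to 10000 UMI, which left 48 ChC and 55 Pv cells and dropped 15 and 8, *Rbfox1* and *Elavl3* had a UMI in all cells of both types (ChC exact 95% interval 92.6% to 100%, Pv 93.5% to 100%). *Elavl2* had a UMI in 100% of ChC and 96.4% of Pv cells and *Celf4* in 100% and 98.2%. Without thinning the shares were 100% and 100% for *Rbfox1*, 98.4% and 96.8% for *Elavl3*, 96.8% and 98.4% for *Elavl2*, and 98.4% and 98.4% for *Celf4*. Thinned to 5000 UMI, they were 100% and 100% for *Rbfox1* and 92.7% and 91.8% for *Elavl3*. At that depth *Elavl2* was found in 98.2% of ChC and 75.4% of Pv cells and *Celf4* in 100% and 86.9%. *Rbfox3* was found in 93.8% of thinned ChC cells (82.8% to 98.7%) and 83.6% of thinned Pv cells (71.2% to 92.2%), against 88.9% and 93.7% without thinning.

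The remaining members were found in fewer cells. *Elavl4* had a UMI in 81.2% of thinned ChC cells (exact 95% interval 67.4% to 91.1%) and 54.5% of thinned Pv cells (40.6% to 68.0%), and in 90.5% and 73.0% without thinning. Its Pv share was lowest in batch 5 (14.3%) and highest in batch 8 (81.2%), and the ChC batches, at 71.4% to 90.9%, overlapped with it. *Ptbp2* was found in 64.6% and 54.5% of thinned cells and 74.6% and 69.8% of all cells, *Nova1* in 31.2% and 43.6% against 39.7% and 53.97%, *Nova2* in 31.2% and 29.1% against 57.1% and 61.9%, and *Khdrbs2* in 27.1% and 36.4% against 53.97% and 53.97%, each for ChC and Pv. These shares followed the batch. *Nova1* was found in all 14 thinned cells of batch 4 and in none of those of batches 1, 2 and 7, and *Ptbp2* in 100% of the thinned cells of batches 2 and 4 but in 9.09% of those of batch 1. The intervals cover counting error over cells only and leave out the spread between batches.

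**Figure D3:**
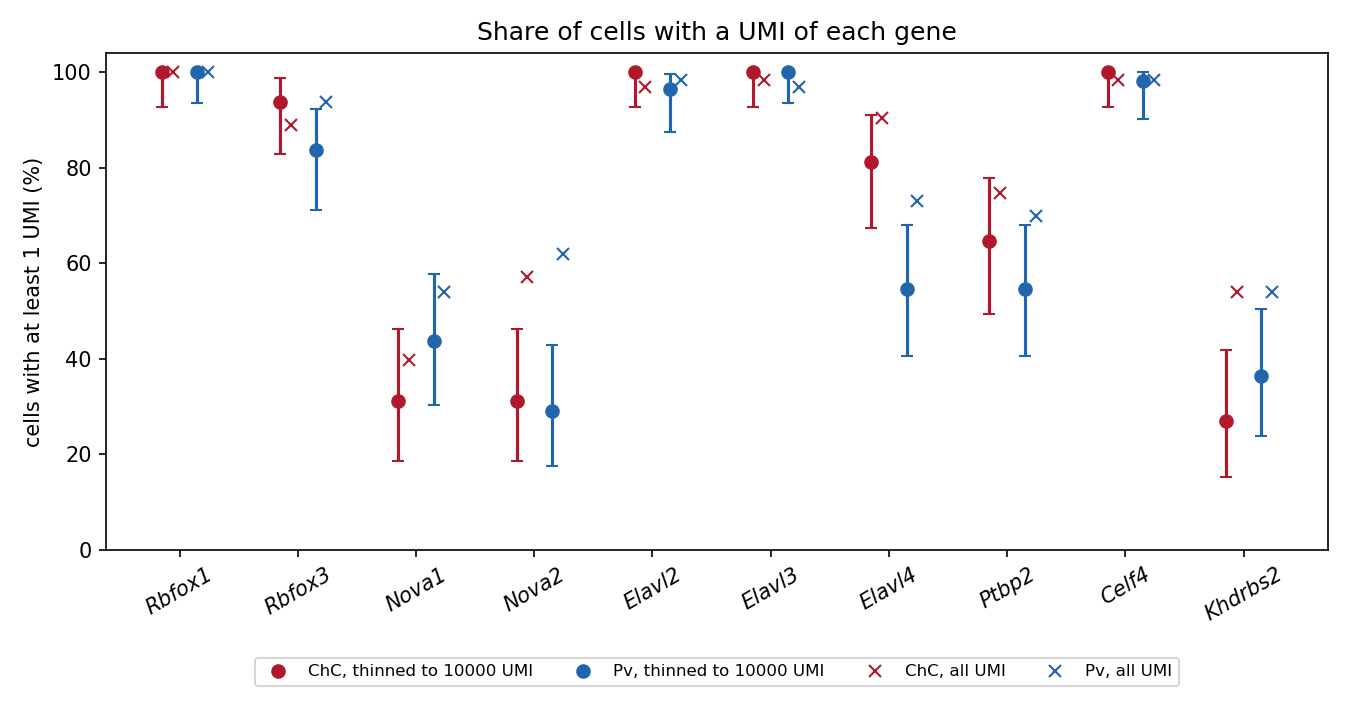
Share of cells with at least 1 UMI of each member gene (vertical axis, percent) in ChC and Pv. Dots with lines are cells thinned to 10000 UMI (48 ChC, 55 Pv) with exact 95% binomial intervals, and crosses are all 63 cells of each type without thinning. *Rbfox1*, *Elavl2*, *Elavl3* and *Celf4* are near 100%, and *Nova1*, *Nova2* and *Khdrbs2* are below 50% in thinned cells.

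Several members had tags under the same cell label. A thinned cell held a median of 7 of the 10 members in both types, with a range of 5 to 10 in ChC and 5 to 9 in Pv. All 3 neuronal Elavl genes were found in 39 of 48 ChC cells (81.2%) and 29 of 55 Pv cells (52.7%), and the cells that lacked one mostly lacked *Elavl4*. *Rbfox1* was found in every thinned cell, so it accompanied *Rbfox3* wherever *Rbfox3* was found, in 45 of 48 ChC and 46 of 55 Pv cells. For the Nova pair, 4 ChC and 4 Pv cells had both genes, 11 and 20 had *Nova1* alone, 11 and 12 had *Nova2* alone, and 22 and 19 had neither.

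Between cells of a batch, most member genes that could be measured varied about as much as other genes with at least 100 UMI. The chi-square per degree of freedom had a median over batches of 1.12 for *Rbfox1* (8 batches, 0.605 to 1.31), 0.928 for *Elavl3* (8 batches, 0.559 to 1.45), 1.00 for *Celf4* (7 batches, 0.611 to 1.61) and 1.04 for *Elavl2* (6 batches, 0.861 to 1.44). It was 1.24 for *Elavl4* and 0.859 for *Ptbp2*, over 4 batches each. *Nova1*, at 0.770, and *Nova2*, at 0.737, were measured in 1 batch each, and *Khdrbs2* had 100 UMI in no batch. *Rbfox3* had the highest, with a median of 1.52 (5 batches, 0.957 to 1.83), and 42.4%, 93.3%, 43.3%, 93.2% and 68.4% of genes were below it in batches 2, 3, 4, 5 and 7. Between the batches of a type, where more UMI also raise the value, it was in ChC 640.4 for *Rbfox1*, 252 for *Nova1* and 199.9 for *Ptbp2*, with 99.3%, 94.8% and 92.4% of 7334 genes below them, and in Pv 326 for *Rbfox3*, with 99.2% of 4421 genes below. *Celf4*, at 6.33, *Nova2*, at 8.33, and *Elavl3*, at 10.3, had low values in Pv, with 5.86%, 8.62% and 12.0% of genes below them. In single cells, *Celf4* had a median of 1166 CPM in ChC (quartiles 745 and 1374) and 424 CPM in Pv (quartiles 310.2 and 517), and *Rbfox1* a median of 1232 CPM in ChC (949 and 2434) and 1922 CPM in Pv (1473 and 2602), over 63 cells each.

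Correlations of members across the cells of a batch were weak. For the 9 members with a UMI in at least 50% of the cells of both types (all but *Nova1*), the Spearman correlation of CPM within a batch, averaged over 8 batches of 15 or 16 cells, had a median of 0.02 over 36 pairs. Over all 7696926 pairs of the 3924 genes that met the same limit it was 0.04, with 5th and 95th percentiles of -0.13 and 0.20. The highest member pair was *Elavl4* with *Celf4*, at 0.15 (batches -0.23 to 0.54), and the lowest *Nova2* with *Khdrbs2*, at -0.15 (batches -0.60 to 0.18). With UMI in place of CPM the medians were 0.66 for member pairs and 0.55 for all pairs, and the cells of a batch share a depth that differs by between 7.48 and 110 times. These are descriptions over cells that share a library and possibly tags, and weak correlations in sparse counts are no finding.

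The 3 genes most like a member on this measure, among 3923 others, are given for 8 members. They were *Kidins220*, *Dlgap1* and *Pdss2* for *Rbfox1* (0.32 to 0.34), *Sra1*, *Naa15* and *Slc30a9* for *Rbfox3* (0.32 to 0.33), and *Snap91*, *Ptov1* and *Srrm2* for *Nova2* (0.30 to 0.33). For the Elavl genes they were *Dynlt3*, *Zeb2* and *Fbxo3* for *Elavl2* (0.38 to 0.42), *Tmsb4x*, *Uqcrfs1* and *Ptprs* for *Elavl3* (0.32 to 0.34), and *Atp5g2*, *Mbtps1* and *Clip3* for *Elavl4* (0.31 to 0.36). They were *4930474G06Rik*, *2810403A07Rik* and *Pithd1* for *Ptbp2* (0.35 to 0.36) and *Tmem181c-ps*, *Necap1* and *Snrnp70* for *Celf4* (0.31 to 0.39). No member was among the nearest genes of these 8, and the highest value for each gene out of so many is high by selection.

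Other splicing genes were examined as lists, in which abundance was ranked by CPM and not per kb of span. Of 11 relatives of the members in the same families, 10 were matched by name (*Ptbp3* was not) and 8 were tested, 0 of which edgeR called, 7 with a log2 fold change above 0 and with a median of 0.86, where 4997 of all 9681 genes were above 0 and the median was 0.05. Of 15 other tissue-restricted regulators, 9 were tested and 0 called, 8 were above 0 and the median was 0.51. All ChC batches were above all Pv batches for 2 of the 9 and for 2.78% of all genes tested, a share against which the list was not tested. *Mbnl1*, a muscleblind protein, was the most abundant of them in ChC at 475 ± 196 CPM and was at 139.7 ± 84.3 CPM in Pv (SD, n = 4), one of those 2, with an edgeR adjusted p of 0.687. *Srrm4*, which controls neuronal microexons, was the most abundant in Pv at 208 ± 116 CPM, but not without batch 8 (150.2 CPM).

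General splicing factors and target genes were set beside the same values for all genes, 4997 of 9681 above 0 with a median of 0.05. Of 13 SR proteins, 12 were tested, 4 were above 0 and the median was -0.18, and *Srsf1* was the most abundant in both types, at 185 ± 137 CPM in ChC and 279 ± 298 CPM in Pv (SD, n = 4). It was not the most abundant in ChC without batch 1 (158 CPM) or batch 4 (135 CPM), or in Pv without batch 6 (156 CPM). Of 24 hnRNP proteins, all were tested, 12 were above 0 and the median was -0.05, with *Pcbp1* the most abundant in ChC (575 ± 569 CPM) and *Hnrnpc* in Pv (455 ± 395 CPM). These ranks too were lost, for *Pcbp1* without batch 1 (298 CPM) and for *Hnrnpc* without batch 5 (259 CPM) or batch 6 (498 CPM). Of 13 genes whose exons the member proteins are known to control, 12 were tested, 7 were above 0 and the median was 0.12. The neurexin gene *Nrxn3*, a target of Khdrbs proteins, was the most abundant of these in both types, at 3336 ± 1766 CPM in ChC and 1388 ± 821 CPM in Pv (SD, n = 4). Per kb of its span it was at 2.07 CPM in ChC and 0.861 CPM in Pv, below other genes of the list. edgeR called 0 genes of these 3 lists at an adjusted p under 0.05. At an unadjusted p under 0.05 it gave 1 of 8 relatives, 1 of 9 tissue-restricted regulators, 1 of 12 SR proteins and 1 of 24 hnRNP proteins. It gave 4 of 12 target genes and 618 of all 9681 genes (6.38%), and the lists were not tested against that share.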

How the data were processed

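The authors aligned poly(A)-primed reads to mm9 with Bowtie 0.12.7, collapsed reads that shared a gene and a varietal tag, and deposited the resulting raw counts (UMI) for each transcript and cell. The table had 27207 rows for 23335 gene names. Of 2121 names with several counted rows, the 2 rows with the most UMI held equal counts in over 0.5 of the cells with either in 1563 (73.7%), so the row with the most UMI stood for a gene and the sum of rows was an alternative. Of 128 cell columns, 2 were empty and were left out.

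Counts were summed per animal and tested with edgeR 4.0.16 (quasi-likelihood, TMM, filterByExpr, Benjamini-Hochberg adjustment, threshold 0.05) in R 4.3.3. Alternatives were DESeq2 1.42.0, RLE scaling, no filter, batches as samples, each animal or batch left out, and thinned cells. The fits were also run on simulated data, and no value from those runs is given here. A lack of calls is not a lack of difference. Correlations of undefined ranks within a batch were set to 0. Thinning was a seeded draw without replacement in Python 3.11.15 with numpy 2.4.6 and scipy 1.17.1. The p-values measure the spread between 2 animals per type. The chi-square between batches and the squared coefficient of variation were added after the data were seen.

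The member genes and lists were chosen with earlier results of these data known. Named genes are the 10 members, the 3 genes most like each of 8 members, the relatives in their families, the most abundant gene of each list in each cell type, cell type markers (those at 0, the most abundant, and *Pvalb*), and genes within the span of a member. Other list genes enter as counts. Spike-ins and reads were not used here.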

Additional observations from a re-analysis of the deposited data

Results flagged for a closer look

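In each group of 4 batches, the CPM of the 10 members was examined for a batch far from the rest, in 20 groups in all. The gap between an end value and its nearest neighbor, relative to the whole range, passed the 95% limit in 3 groups. For independent values of a normal distribution, chance flags about 1 in 20 groups. The batches here come from 2 animals per type and some hold few UMI of a gene, so that rate may not hold. *Nova1* was at 254 CPM in ChC batch 4, where the other ChC batches were between 0 and 10.01 CPM. *Elavl2* was at 819.9 CPM in Pv batch 6, where the other Pv batches were between 197 and 246 CPM. *Khdrbs2* was at 221 CPM in Pv batch 7, where the other Pv batches were between 10.7 and 36.4 CPM. Within each of these batches the gene was spread over the cells, with a UMI of *Nova1* in 15 of 15 cells, of *Elavl2* in 14 of 15 and of *Khdrbs2* in 16 of 16, and the cell with the most held 26.8%, 18.9% and 16.5% of the tags. The cause was not tested.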

How the results depend on the processing

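edgeR over animals called 0 of 9681 genes, as with RLE scaling, summed rows or thinned cells. It called 85 without the filter on low counts and 6 with batches as samples, and DESeq2 called 156. Leaving out 1 animal or batch gave between 0 and 96 calls, the highest without animal 4, and 60, 18 and 16 without animals 2, 3 and 1. Where an animal was left out, the lone animal of its type was assumed to vary like the others. No member gene was called under any of these alternatives.

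The log2 fold changes of *Celf4* and *Elavl2* were above 0 under every alternative. Over the 12 fits that left out 1 animal or batch, the sign changed for the other 8 members, whose values ran from -1.02 to 0.36 for *Rbfox1*, -0.99 to 1.17 for *Rbfox3*, -6.23 to 0.60 for *Nova1*, -1.50 to 0.68 for *Nova2*, -0.19 to 0.35 for *Elavl3*, -0.00504 to 1.72 for *Elavl4*, -0.0885 to 2.22 for *Ptbp2* and -2.38 to 0.44 for *Khdrbs2*. *Nova2* was at 0.0217 without the filter and 0.45 in thinned cells. The causes were not tested. No other member changed sign with DESeq2, RLE scaling, no filter, summed rows, thinned cells or batches as samples, where *Khdrbs2* did not pass the filter.

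Of 20 mean levels, all stayed within 1 SD without TMM scaling or with every cell weighted alike. Leaving out 1 batch moved some by over 1.5 times, in ChC *Nova1* to 3.96 CPM (without batch 4), *Nova2* to 23.99 (batch 3), *Khdrbs2* to 12.8 (batch 2), *Ptbp2* to 103.9 (batch 4) and *Rbfox1* to 1123 (batch 1), and in Pv *Khdrbs2* to 19.4 (batch 7), *Nova1* to 34.9 (batch 6), *Rbfox3* to 247 (batch 5) and *Elavl2* to 219 (batch 6). With summed rows, 4 moved (*Elavl2* and *Elavl4*, whose rows repeat the same tags). *Celf4* was the 1 member with all ChC batches above all Pv batches on these 4 scales, and on a scale chosen after seeing the data, without the tags of its shorter row, the number was 0, with means of 921 and 353 CPM against 1084 and 422 CPM. Of 20 shares of cells, 10 left their interval with 5000 UMI and 7 without thinning. No paired analysis was possible because the cell types share no batch or animal. Lanes 1 and 2 occur in both types but on different flow cells, so a lane number is not a shared block.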
